A study of Mus musculus with 24 samples.

Results

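The mRNA of 9 genes whose products build or load the centromere was followed in mouse embryonic stem cells (mESCs) edited to lack 1 accessory subunit of the ISWI chromatin remodelers. The genes are Cenpa, Cenpb, Cenpc1, Cenpe, Cenpf, Cenph, Cenpi, Hjurp and Oip5, and they were chosen by symbol because RSF1, the product of 1 of the deleted genes, acts at centromeres. All 9 were found in the counts table of 24594 genes, and all 9 were among the 15682 genes that passed the filter on low counts. RNA was sequenced in 24 libraries of 129S6/SvEvTac mESCs with no treatment, grown in serum with LIF on gelatin. The 11 wild-type (WT) libraries fall into 5 batches, and every deletion line was set against the WT libraries of its own batch. Batch A holds 2 libraries of Rsf1Δ, 2 of WstfΔ and 2 of WT, so that both lines share their controls. Batch B holds 2 libraries of Tip5Δ and 2 of WT, batch C 2 of BptfΔ and 2 of WT, and batch E 2 of Acf1Δ and 2 of WT. Batch D holds 3 libraries labelled Cecr2Δ and 3 of WT. The lines were made with CRISPR–Cas9, and a single clone stands for each genotype, so the clone and the deletion cannot be told apart. The study's methods describe the libraries of 1 group as independent replicates, so p-values measure the spread between replicates and not between clones.

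The centromere is the chromosomal site on which the kinetochore, the attachment for spindle microtubules, is assembled. It is marked by nucleosomes that carry CENP-A (Cenpa) in place of canonical histone H3. New CENP-A is delivered by its chaperone HJURP, to sites that are licensed by the MIS18 complex, of which OIP5 (MIS18β) is a subunit. CENP-B (Cenpb) binds a short DNA motif in the centromeric satellite repeats. CENP-C (Cenpc1), CENP-H (Cenph) and CENP-I (Cenpi) belong to the constitutive centromere-associated network (CCAN), which stays on the centromere through the cell cycle. CENP-E (Cenpe), a kinesin motor, and CENP-F (Cenpf), a large coiled-coil protein, join the outer kinetochore around mitosis. RSF1 is the partner of the ATPase SNF2H in the RSF complex, which has been linked to the assembly of CENP-A chromatin. The other deleted genes encode further partners of ISWI ATPases: TIP5 (Baz2a), ACF1 (Baz1a), WSTF (Baz1b), BPTF and CECR2.

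RefSeq places Cenpa (gene ID 12615) at 30666877 to 30674837 and Cenpc1 (12617) at 86012018 to 86065962 of chromosome 5 in GRCm38.p6. Hjurp (381280) spans 88258856 to 88277644 and Cenpf (108000) 189640606 to 189688107, both on chromosome 1. Oip5 (70645) spans 119609532 to 119618505 and Cenpb (12616) 131177289 to 131180067, both on chromosome 2. Cenpe (229841) lies on chromosome 3 from 135212563 to 135273540, Cenph (26886) on chromosome 13 from 100759674 to 100775903, and Cenpi (102920) on chromosome X from 134308084 to 134363104. Counts are per gene and do not separate exons. In the GENCODE M21 annotation, 172 exon bases of Oip5 (9.67%) overlap Nusap1 on the other strand, and 20 exon bases of Cenpb (0.409%) overlap Spef1 on the same strand. The labels name a stranded library kit and the study's methods another kit, and how strand was counted is not given in the sources used here. Reads in these stretches can therefore belong to either gene. No exon of the other 7 genes overlaps another gene, and no gene of the annotation is named as a pseudogene of any of the 9.

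Promoter windows from RefSeq (GRCm38.p6), 250 bases before to 50 bases from the start site on, were found for all 9 genes and searched on both strands for letters known from promoters of cell cycle genes. CCAAT, the letters of the NF-Y box, stood in 8 of the 9 windows, against 37.4% of 32851 windows of all genes. TTTGAA, the letters of the CHR element, stood in 4 (Cenpa, Cenpf, Hjurp and Oip5), against 17.9%. The E2F letters TTTCCCGC stood in 1 (Cenpb), against 1.07%, and TTTGGCGC in 0, against 0.514%. The motifs do not overlap each other in these windows, and a match is a description of letters and not of a bound site. The window of Cenpb is shown because this gene changed in the most lines and holds neither CCAAT nor TTTGAA, and those of Cenpa and Cenpf because these genes hold both and changed in opposite directions in Acf1Δ. Capitals mark the matches, with ATTGG as the other strand of CCAAT. The Cenpa window is chr5:30666636-30666935 (plus strand), that of Cenpf chr1:189688037-189688336 (minus strand) and that of Cenpb chr2:131180018-131180317 (minus strand).
Cenpa: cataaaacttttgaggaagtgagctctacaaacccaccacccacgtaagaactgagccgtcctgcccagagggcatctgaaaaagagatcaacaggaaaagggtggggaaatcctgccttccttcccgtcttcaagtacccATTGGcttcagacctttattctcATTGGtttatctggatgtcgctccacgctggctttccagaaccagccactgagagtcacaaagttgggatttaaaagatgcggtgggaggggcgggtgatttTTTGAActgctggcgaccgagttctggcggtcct
Cenpf: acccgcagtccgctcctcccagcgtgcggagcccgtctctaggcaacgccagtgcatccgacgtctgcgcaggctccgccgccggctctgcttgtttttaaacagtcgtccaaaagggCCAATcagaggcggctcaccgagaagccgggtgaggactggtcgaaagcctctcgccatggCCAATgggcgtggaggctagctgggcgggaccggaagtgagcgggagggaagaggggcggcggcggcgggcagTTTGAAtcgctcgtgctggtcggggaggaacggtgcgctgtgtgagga
Cenpb: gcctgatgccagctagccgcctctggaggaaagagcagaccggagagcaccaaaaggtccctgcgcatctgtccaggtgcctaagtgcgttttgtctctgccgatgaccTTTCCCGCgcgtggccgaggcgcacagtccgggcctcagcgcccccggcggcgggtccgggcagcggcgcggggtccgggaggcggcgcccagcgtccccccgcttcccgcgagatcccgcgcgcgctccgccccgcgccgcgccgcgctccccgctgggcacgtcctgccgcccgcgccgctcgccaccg

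Library totals ran from 13417800 counts in a WstfΔ library to 36721600 in a Cecr2Δ-labelled library, and the 2 WstfΔ libraries were the shallowest. Each of the 9 genes had at least 484 counts in every WT library. The summed level of 6 mESC markers was 2527 to 4117 normalized CPM (each library's counts as a share of its total, scaled with TMM factors) in all 24 libraries. The mRNA of the targeted gene fell to 20.8% of WT for Rsf1 in Rsf1Δ, 30.4% for Baz1a in Acf1Δ, 18.9% for Baz1b in WstfΔ and 25.6% for Bptf in BptfΔ. Baz2a in Tip5Δ was at 83.6% of WT (edgeR adjusted p = 0.0533), and Cecr2 was at 129% of WT in the libraries labelled Cecr2Δ, which are therefore named by their label. These are mRNA levels, and the study reports that western blots detected none of the targeted protein in any of its deletion lines. Other targeted genes moved too. In BptfΔ Baz1a was at 23.5 and 24.4 normalized CPM against 80.5 and 79.3 in WT, and Cecr2 at 42.9 and 39.3 against 120 and 122. Of the 6 targeted genes, own target included, 4 fell in Acf1Δ (16.7% of all genes) and 3 in BptfΔ (20.2%). In Rsf1Δ (13.1%) and WstfΔ (18.3%) 2 fell each, and with the Cecr2Δ label 1 (8.83%). In WstfΔ (16.4%) and with the Cecr2Δ label (9.52%) 1 rose, and in Tip5Δ 0 passed (9.07%). Replicate libraries differed by 1.38 to 20.4 times the Poisson variance over genes, with the largest values in WT of batch D and in Acf1Δ.

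In WT mESCs all 9 genes were expressed, with Cenpa at the top and Cenpi at the bottom when levels were divided by gene width. Per kilobase, Cenpa reached 33.0 ± 2.86 normalized CPM (SD, n = 11) and Cenpi 6.48 ± 0.668 (SD, n = 11). Between them stood Hjurp at 29.8 ± 3.95, Cenpf at 28.4 ± 4.201, Cenph at 24.6 ± 3.51 and Cenpe at 22.6 ± 3.24 (SD, n = 11 each), followed by Oip5 at 16.3 ± 1.25, Cenpc1 at 12.2 ± 1.32 and Cenpb at 11.6 ± 1.66 (SD, n = 11 each). For scale, the pluripotency factor Pou5f1 was at 538 ± 93.6 per kilobase (SD, n = 11). Of the 8 steps between neighbours in this order, 3 passed an exact two-sided sign-flip permutation test over the 11 libraries: Cenpe over Oip5, Oip5 over Cenpc1 and Cenpb over Cenpi. In this exact permutation test each held in 11 of 11 libraries (p = 0.000977, the smallest that 11 libraries allow, adjusted p = 0.0026), with the libraries of 1 batch taken as independent. The steps among Cenpa, Hjurp, Cenpf, Cenph and Cenpe, and from Cenpc1 to Cenpb, did not pass, with adjusted p-values from 0.0996 to 0.369. Per-kilobase levels rest on the widths in the deposited table, which for Cenpa is 2506 bases where the exons of all GENCODE transcripts cover 5860. For Cenpf these values are 11346 and 15433 bases and for Cenpe 8080 and 8620, and the order was not recomputed with GENCODE widths.

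**Figure D1:**
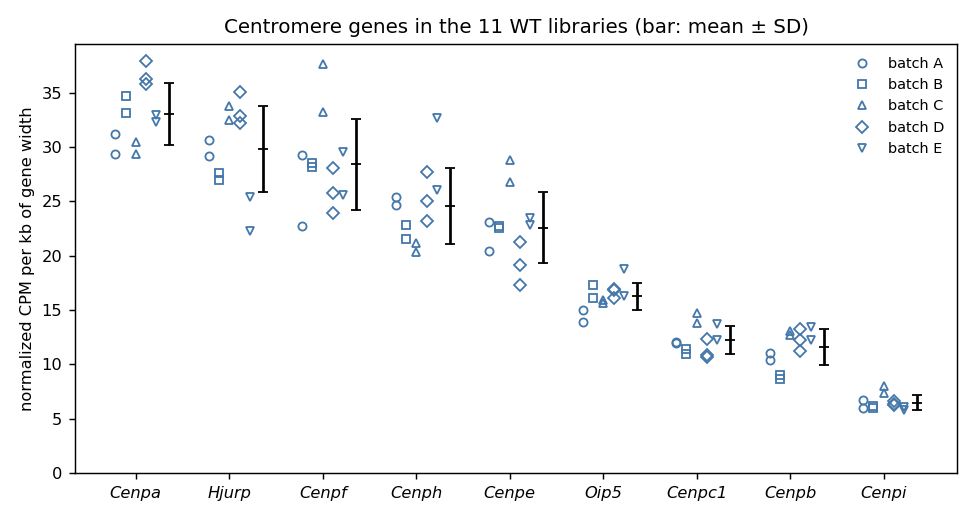
Normalized CPM per kilobase of gene width (y axis) of the 9 genes (x axis) in the 11 WT libraries, with 1 symbol for each batch and the mean ± SD (n = 11) at the right of each gene. Cenpa, Hjurp, Cenpf, Cenph and Cenpe lie at means of 22.6 to 33.0, and Cenpi is lowest at 6.48.

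WT levels also depended on the batch. An F test of the 4 batch terms, which compare WT libraries, gave an adjusted p under 0.01 for 8 of the 9 genes (edgeR), where 73.1% of all genes tested passed, and Oip5 had an adjusted p of 0.0422. The log2 range between the batch means was 0.28 for Oip5 to 0.55 for Cenpb, smaller for each of the 9 genes than the median of 0.69 over all genes. Batch C had the highest WT level of Cenpb, Cenpc1, Cenpe, Cenpf and Cenpi, and batch E the lowest of Hjurp and Cenpi. Hjurp in WT was at 185 and 211 normalized CPM in batch E and at 268, 292 and 274 in batch D, so the same gene differed more between these WT batches than Rsf1Δ differed from its own WT.

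Against the WT of its batch, no deletion line changed any of the 9 genes by as much as 2-fold. In 54 comparisons (9 genes in 6 lines), 14 had an adjusted p under 0.01 in edgeR's quasi-likelihood test, the rule for the words rose and fell here, and these were 10 increases and 4 decreases. The 14 make up 25.9% of the comparisons, where all genes tested passed in a mean of 26.0% over the 6 lines. None met the rule for a differentially expressed gene (DEG), which adds an absolute log2 fold change, log2(FC), over 1. The log2(FC) ranged from -0.54 (Cenpf in Acf1Δ) to 0.83 (Cenpb in BptfΔ). Each gene except Cenph changed in at least 1 line, and Cenpb changed in the most, with increases in 4. For each of the 14 changes the libraries of the line and of its WT did not overlap. In the lines that hold these changes, 63.2% to 79.9% of all genes tested did not overlap either.

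In Rsf1Δ 2 of the 9 genes were called, where 20.6% of all genes tested were: 2 rose (7.45% of all genes) and 0 fell (13.1%), and 0 were DEGs (5.91%). In Tip5Δ 1 was called (9.07%), with 1 rising (2.84%), 0 falling (6.23%) and 0 DEGs (2.72%). For the libraries labelled Cecr2Δ the count was 0 (18.4%), with 0 rising (9.52%), 0 falling (8.83%) and 0 DEGs (3.11%). Acf1Δ had 5 called genes (31.8%), of which 2 rose (15.1%) and 3 fell (16.7%), with 0 DEGs (4.45%). WstfΔ had 4 (34.7%), of which 4 rose (16.4%) and 0 fell (18.3%), with 0 DEGs (10.4%). BptfΔ had 2 (41.6%), of which 1 rose (21.4%) and 1 fell (20.2%), with 0 DEGs (13.8%). For the libraries labelled Cecr2Δ DESeq2 also gave a count of 0, while 1 gene passed in edgeR with the width trend removed or the GC and width trends removed (Oip5) or without WT replicate 1 of batch D (Cenpc1), and 2 of the 9 genes, Cenpc1 and Oip5, had an unadjusted p under 0.05. The median log2(FC) of the 9 genes was highest in Tip5Δ (0.15) and Rsf1Δ (0.10) and lowest in Acf1Δ (-0.075) and BptfΔ (-0.029), with WstfΔ at 0.072 and the Cecr2Δ-labelled libraries at 0.033, and that of all genes lay between -0.026 and 0.015. Line and WT did not overlap for 6 of the 9 genes each in Rsf1Δ (67.1% of all genes), Tip5Δ (63.3%), Acf1Δ (63.2%) and WstfΔ (76.9%), for 5 in BptfΔ (79.9%) and for 2 among the Cecr2Δ-labelled libraries (38.3%).

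**Figure D2:**
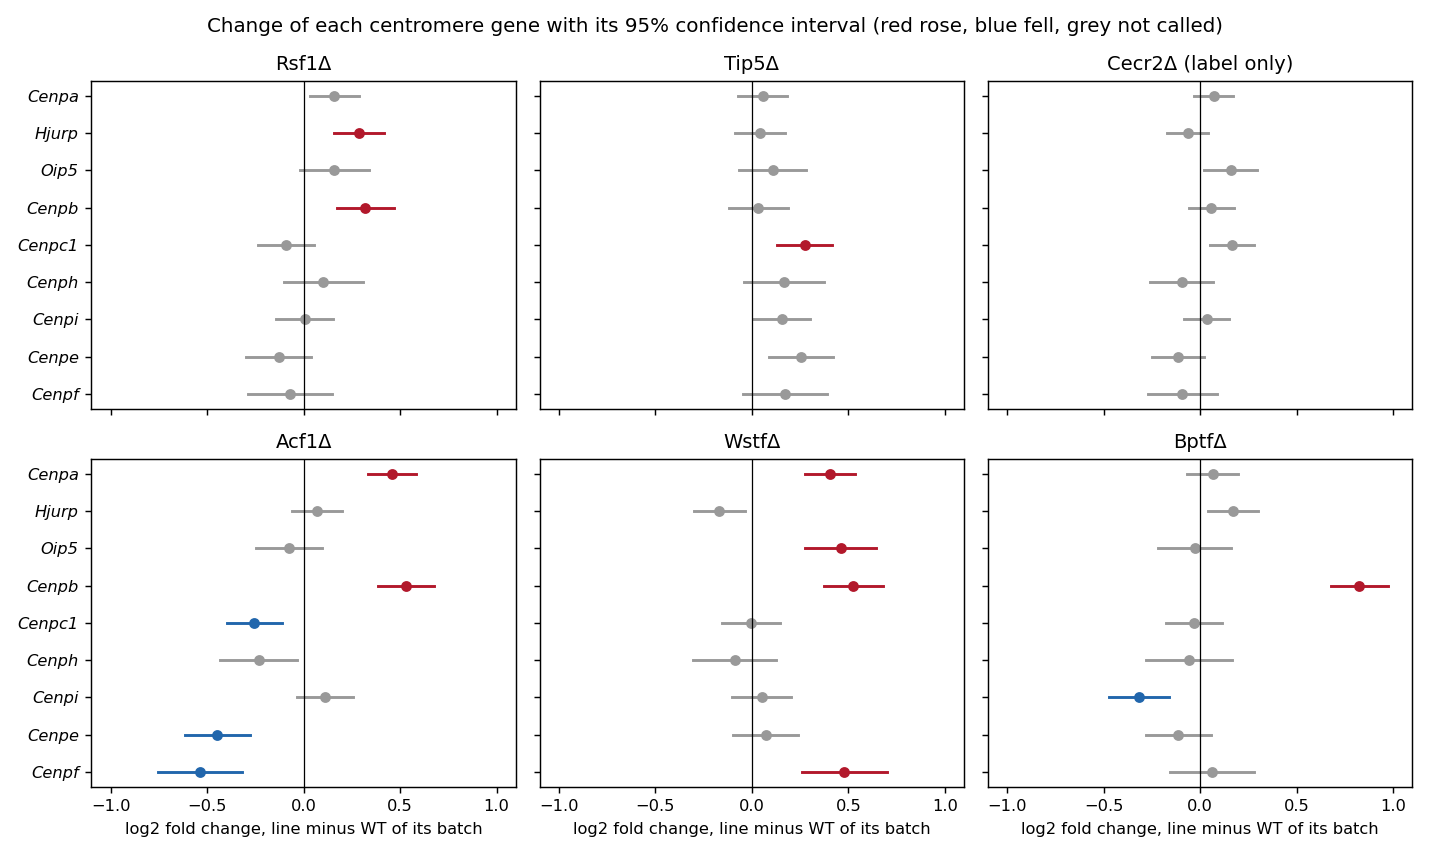
The log2 fold change of each of the 9 genes (y axis) in each line against the WT libraries of its batch (x axis), with its 95% confidence interval from the edgeR fit. Red marks the 10 increases and blue the 4 decreases at an adjusted p under 0.01, and the red Cenpb interval lies above 0 in Rsf1Δ, Acf1Δ, WstfΔ and BptfΔ.

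Of the 3 genes among the 9 that encode CENP-A and its deposition factors, Cenpa rose in Acf1Δ and WstfΔ, Hjurp in Rsf1Δ and Oip5 in WstfΔ, and these 3 fell in no line. Cenpa was at 106 and 119 normalized CPM in the Acf1Δ libraries and at 82.5 and 80.9 in their WT, a log2(FC) of 0.46 (standard error 0.061, edgeR adjusted p = 1.16e-06). In WstfΔ it was at 99.9 and 101 against 78.2 and 73.5, a log2(FC) of 0.40 (standard error 0.063, edgeR adjusted p = 7.86e-06). Both lines stood above every one of the 11 WT libraries, of which the highest was at 94.9. The 2 Rsf1Δ libraries were at 85.8 and 83.7 normalized CPM of Cenpa, above both of their WT libraries, with a log2(FC) of 0.16 that did not pass (edgeR adjusted p = 0.052), and with the GC and width trends removed it passed at 0.21 (adjusted p = 0.00115). In Tip5Δ, BptfΔ and the libraries labelled Cecr2Δ the log2(FC) of Cenpa was 0.056 to 0.070.

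Hjurp, the chaperone, was at 298 and 310 normalized CPM in Rsf1Δ and at 243 and 255 in its WT, a log2(FC) of 0.29 (standard error 0.063, edgeR adjusted p = 0.00088). Both values are higher than those of all 11 WT libraries, which reached 292, and so are those of the 2 BptfΔ libraries given below. The call rests on few libraries: without WT replicate 1 of batch A the adjusted p was 0.022, and without Rsf1Δ replicate 2 it was 0.0175. In WstfΔ, which shares these controls, Hjurp was at 220 and 224 (log2(FC) -0.17, edgeR adjusted p = 0.0328), and in BptfΔ at 305 and 315 against 271 and 281 (log2(FC) 0.17, edgeR adjusted p = 0.0268). Neither of these passed. With each line's own WT libraries only, both did (BptfΔ 0.14, adjusted p = 0.00197, and WstfΔ -0.15, adjusted p = 0.00853), and Hjurp also passed in BptfΔ with the width trend removed (0.21, adjusted p = 0.00189) and with the GC and width trends removed (0.20, adjusted p = 0.000943), settings chosen after seeing the data. In Tip5Δ, Acf1Δ and the libraries labelled Cecr2Δ the log2(FC) lay between -0.065 and 0.071.

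Oip5 was the least abundant of the 9 genes per library, at 28.9 ± 2.22 normalized CPM in WT (SD, n = 11). It was at 34.9 and 35.9 normalized CPM in WstfΔ against 26.6 and 24.8 in WT, a log2(FC) of 0.46 (standard error 0.090, edgeR adjusted p = 0.000129). Nusap1, a spindle protein gene on the other strand, rose in the same line with a log2(FC) of 0.37 (edgeR adjusted p = 0.000118). In Acf1Δ Nusap1 fell by 0.38 on the log2 scale while Oip5 was at 27.7 and 31.5 against 33.3 and 29.0, which overlap, and the part of shared reads in these values was not tested. In the other lines the log2(FC) of Oip5 was -0.029 to 0.16, and none passed.

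**Figure D3:**
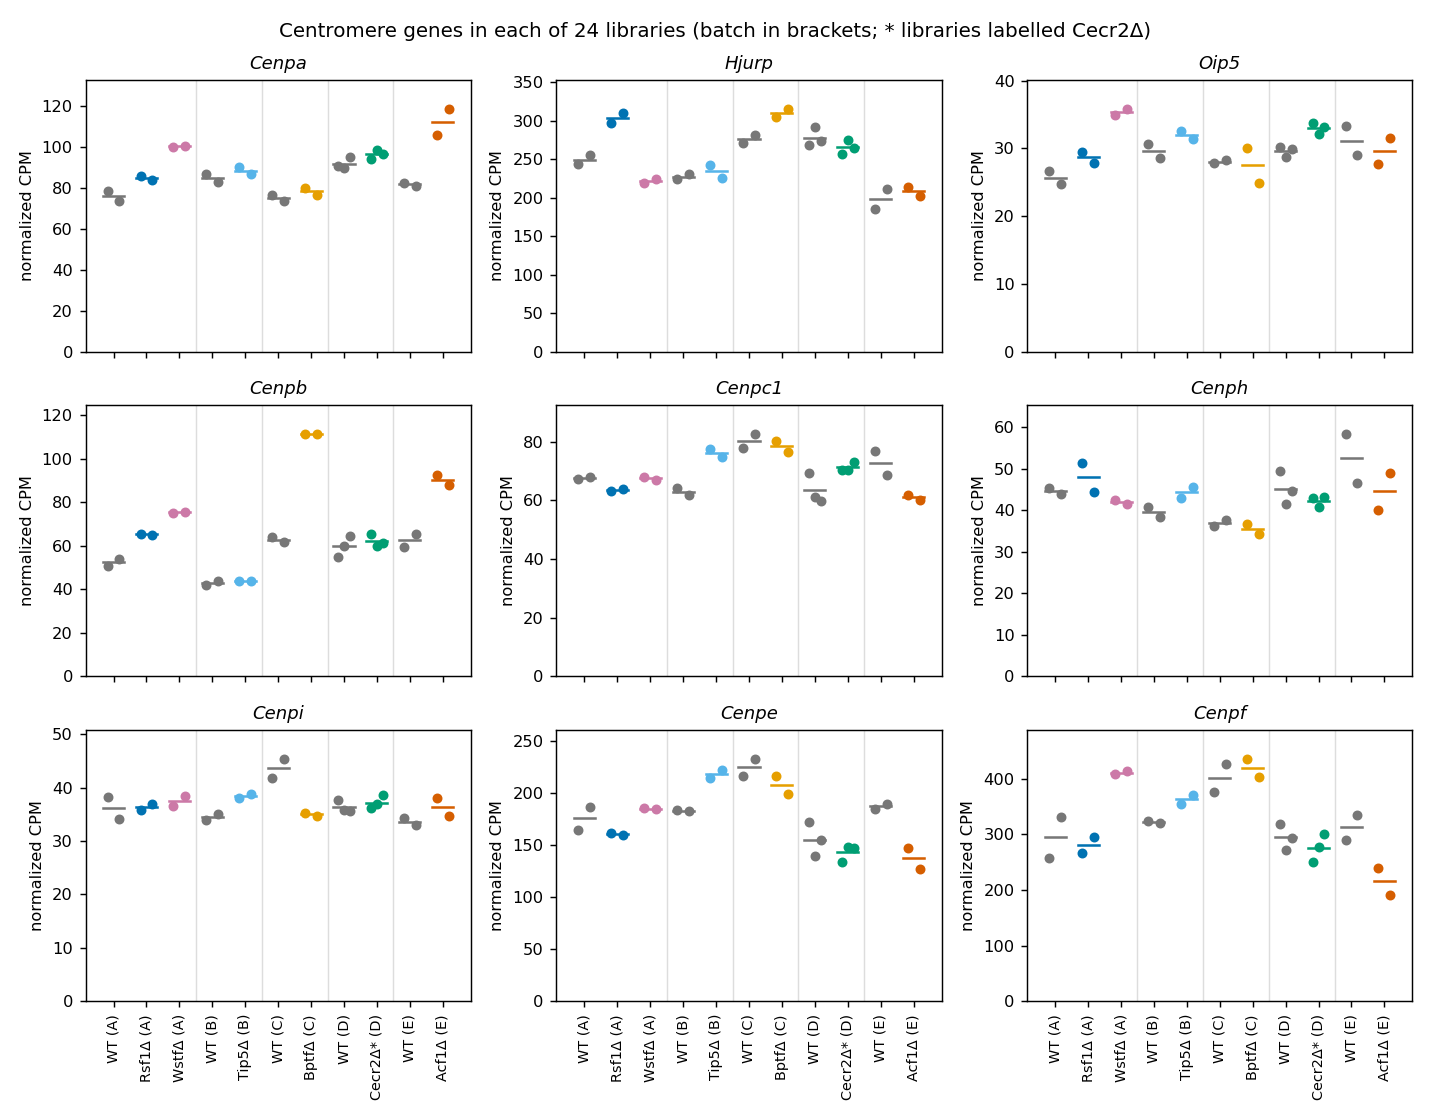
Normalized CPM (y axis, from 0) of each of the 9 genes in each of the 24 libraries, by genotype with the batch in brackets (x axis). Points are libraries, bars are group means, grey is WT, and an asterisk marks the libraries labelled Cecr2Δ, which overlap their WT for 7 of the 9 genes.

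Cenpb, which encodes the protein that reads the satellite DNA motif, rose in 4 of the 6 lines and had the largest change of all 54 comparisons. In BptfΔ it was at 112 and 111 normalized CPM against 63.9 and 61.9 in WT, a log2(FC) of 0.83 (standard error 0.072, edgeR adjusted p = 2.56e-10), or a 1.77-fold increase. In Acf1Δ it was at 92.7 and 88.1 against 59.7 and 65.5 (log2(FC) 0.53, standard error 0.070, edgeR adjusted p = 1.09e-06), and in WstfΔ at 75.0 and 75.8 against 50.7 and 54.1 (log2(FC) 0.53, standard error 0.074, edgeR adjusted p = 1.56e-06). The libraries of BptfΔ, Acf1Δ and WstfΔ were above all 11 WT libraries, which ended at 65.5. In Rsf1Δ it was at 65.7 and 65.1 (log2(FC) 0.32, standard error 0.072, edgeR adjusted p = 0.00111), within 1 normalized CPM of the highest WT libraries of other batches. This call was lost without WT replicate 1 of batch A (adjusted p = 0.0295) and without Rsf1Δ replicate 1 (adjusted p = 0.0115). Tip5Δ, at 44.0 and 44.1 against 42.04 and 44.1, and the libraries labelled Cecr2Δ, at 65.3, 59.8 and 61.2 against 54.7, 59.8 and 64.6, overlapped their WT.

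Some other measures moved with Cenpb. Its transcript has a GC content of 56.3%, higher than 84.0% of the 9964 genes whose mean log2 CPM reached 3. Genes with a GC content over 57% had a median log2(FC) of 0.13 in Rsf1Δ, 0.14 in Acf1Δ, 0.21 in WstfΔ and 0.18 in BptfΔ, and genes under 42% had -0.014, -0.14, -0.097 and -0.068. Genes of 52 to 57%, the bin of Cenpb itself, had medians of 0.074, 0.11, 0.061 and 0.13 in the same order of lines. With smooth trends against GC content and gene width taken out of each library, a setting chosen after seeing the data, the log2(FC) of Cenpb was 0.35, 0.47, 0.41 and 0.69 in these lines and all 4 calls remained. Spef1, the gene that shares exon bases with Cenpb, had log2(FC) values of 0.39 (edgeR adjusted p = 0.0978), 0.64 (0.00174), 0.82 (0.00059) and 1.28 (6.72e-07) in the same order, and the part of shared reads in the counts of Cenpb was not tested.

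The 3 CCAN genes among the 9, Cenpc1, Cenph and Cenpi, changed little and in no common direction. Cenpc1, which encodes the CENP-C link between CENP-A nucleosomes and the outer kinetochore, rose in Tip5Δ, at 77.4 and 74.7 normalized CPM against 64.2 and 61.7 (log2(FC) 0.27, standard error 0.069, edgeR adjusted p = 0.00698). This call was lost in 4 of 4 fits that leave out a library, with library size only and with a replicate block. Cenpc1 fell in Acf1Δ, at 62.0 and 60.3 against 77.0 and 68.8 (log2(FC) -0.26, standard error 0.069, edgeR adjusted p = 0.00392), and 5 of 11 other settings kept that call. In the libraries labelled Cecr2Δ it was at 70.5, 70.3 and 73.2 against 69.5, 61.3 and 59.9, with a log2(FC) of 0.17 that did not pass (edgeR adjusted p = 0.026).

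Cenpi, the X-linked member, fell in BptfΔ, at 35.3 and 34.7 normalized CPM against 41.8 and 45.4 in WT, a log2(FC) of -0.32 (standard error 0.075, edgeR adjusted p = 0.0008). The 2 BptfΔ libraries lie within the range of the WT libraries of the other batches, 33.0 to 38.3. The call was lost without BptfΔ replicate 2 and without WT replicate 2 of batch C, and with the GC and width trends removed (log2(FC) -0.18, adjusted p = 0.0278). The 321 chromosome X genes whose mean log2 CPM reached 3 had a median log2(FC) of -0.13 in BptfΔ, against 0.047 over all such genes, and the part of this shift in the value of Cenpi was not tested. Cenph passed in no line, with log2(FC) values from -0.23 in Acf1Δ, at 40.1 and 49.0 against 58.4 and 46.5, to 0.16 in Tip5Δ, at 43.0 and 45.5 against 40.7 and 38.4. For Cenph the standard errors were 0.079 to 0.11, so the 95% intervals reach from -0.43 to 0.37.

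Cenpe and Cenpf, the genes that act in mitosis at the outer kinetochore, both fell in Acf1Δ. Cenpe was at 147 and 127 normalized CPM against 185 and 190 in WT, a log2(FC) of -0.45 (standard error 0.081, edgeR adjusted p = 7.41e-05). Cenpf was at 240 and 191 against 291 and 335, a log2(FC) of -0.54 (standard error 0.11, edgeR adjusted p = 0.000205), and without Acf1Δ replicate 2 the log2(FC) was -0.38 (adjusted p = 0.0132). In WstfΔ, Cenpf went the other way, at 408 and 413 against 258 and 332 (log2(FC) 0.48, standard error 0.11, edgeR adjusted p = 0.000579), a call that was lost without WT replicate 1 of batch A (log2(FC) 0.31, adjusted p = 0.0433). Cenpe in WstfΔ, at 185 and 184 against 165 and 187, overlapped its WT. In Tip5Δ Cenpe was at 214 and 222 against 184 and 182, with a log2(FC) of 0.25 that did not pass (edgeR adjusted p = 0.0311). It passed under 4 alternatives, at 0.25 with its own WT libraries only, 0.27 with no filter, 0.29 with the width trend removed and 0.24 with the GC and width trends removed (adjusted p from 7.14e-08 to 0.00647). With own WT libraries only, Cenpf in Tip5Δ (0.17, adjusted p = 4.98e-05) and Cenpe in BptfΔ (-0.14, adjusted p = 0.00838) also passed. In Rsf1Δ Cenpe had a log2(FC) of -0.13 and Cenpf of -0.071, and neither passed.

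Changes in Acf1Δ varied with gene width and GC content over all genes, and the genes that fell there, Cenpc1, Cenpe and Cenpf, are wider and lower in GC content than the median gene. Cenpi, with a width of 5681 bases and a GC content of 41.4%, is also on that side of both medians (4519 bases and 49.7%) and was at 38.0 and 34.7 normalized CPM against 34.3 and 33.0. The part of width and GC content in these values was not tested. Cenpf and Cenpe, with widths of 11346 and 8080 bases, are longer than 94.4% and 83.7% of the same 9964 genes. The median log2(FC) in Acf1Δ was 0.15 for genes under 2 kb, 0.089 for 2 to 4 kb, -0.016 for 4 to 8 kb and -0.15 over 8 kb. Across 9810 genes, which are not independent replicates, Spearman's rho of log2(FC) with width was -0.29 and with GC content 0.28. With the GC and width trends removed, the log2(FC) of Cenpe in Acf1Δ was -0.27 (adjusted p = 0.00101) and that of Cenpf -0.31 (adjusted p = 0.00201), while Cenpc1 at -0.11 was no longer called (adjusted p = 0.106). The same fit called Cenph, Cenpi and Hjurp in Acf1Δ at -0.22, 0.25 and 0.20. Cenpa and Cenpb remained higher, at 0.44 and 0.47.

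**Figure D4:**
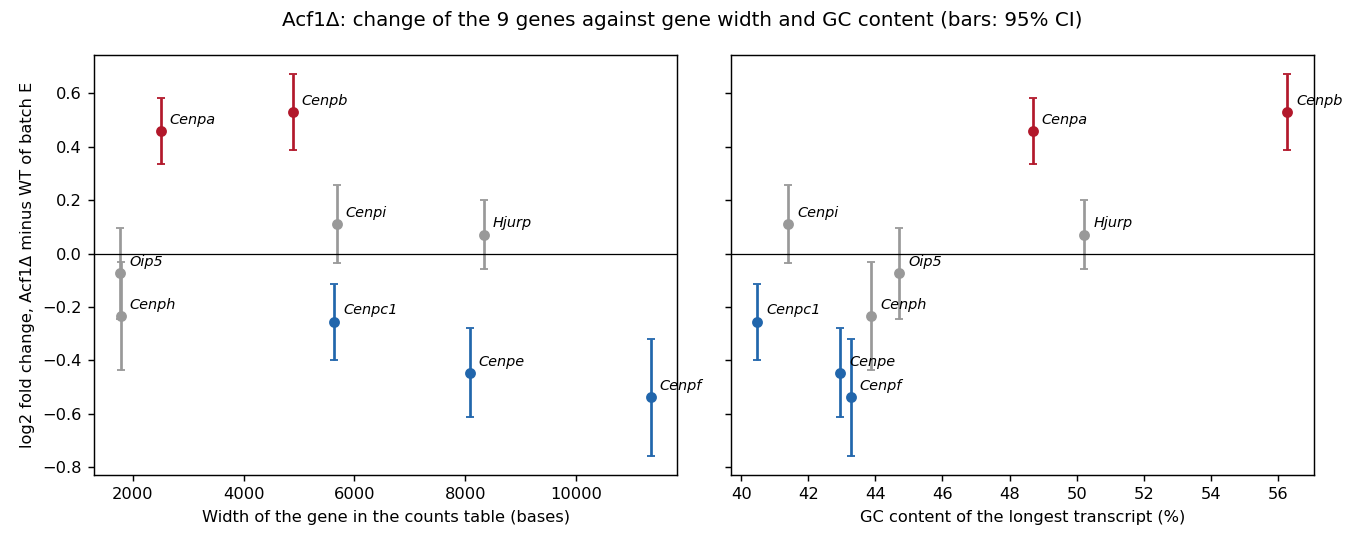
The log2 fold change of the 9 genes in Acf1Δ (y axis, with 95% confidence intervals) against gene width in bases (left) and GC content of the longest transcript in % (right). The genes that fell (blue) have GC contents of 40.5 to 43.3%, and those that rose (red) 48.7 and 56.3%.

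Whether Rsf1Δ differed from the other lines was tested with a contrast of its log2(FC) against the mean of the other 5, in the same fit. Hjurp alone of the 9 genes passed, with a difference of 0.28 (standard error 0.062, edgeR adjusted p = 0.00152), where 16.8% of all genes tested passed. Its log2(FC) was 0.29 in Rsf1Δ and 0.00998 in the mean of the other lines. That mean covers values of both signs, from -0.17 in WstfΔ to 0.17 in BptfΔ, and Rsf1Δ was not tested against BptfΔ alone. The difference did not pass without WT replicate 1 of batch A (0.25, adjusted p = 0.0173) or without Rsf1Δ replicate 2 (0.25, adjusted p = 0.0265). For Cenpa the difference was -0.050 with a 95% interval of -0.18 to 0.076, for Cenpb -0.074 (-0.22 to 0.073) and for Oip5 0.033 (-0.14 to 0.21). The intervals of the CCAN genes and of Cenpe and Cenpf also included 0, the widest being that of Cenph, 0.16 (-0.040 to 0.37).

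Rsf1Δ and WstfΔ were compared directly, since they share a batch. Of the 9 genes 4 differed (33.3% of all genes tested): WstfΔ was higher than Rsf1Δ for Cenpf by 0.55 on the log2 scale (standard error 0.11, edgeR adjusted p = 0.000141), for Oip5 by 0.30 (0.089, 0.00691) and for Cenpa by 0.24 (0.063, 0.00251), and lower for Hjurp (-0.45, standard error 0.064, edgeR adjusted p = 1.89e-06). The libraries of the 2 lines do not overlap for any of these 4 genes, which the test had already selected, and the share over all genes was not computed. Leaving out any 1 of the 4 libraries of these lines took away the calls of Cenpa and Oip5, and those of Cenpf and Hjurp remained. With the GC and width trends removed Cenpe differed as well (0.21, adjusted p = 0.00914). The Oip5 call was also lost without Cecr2Δ-labelled replicate 1 (adjusted p = 0.0101) and without WT replicate 3 of batch D (adjusted p = 0.0102).

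The other genes of the centromere and kinetochore were read from lists that hold 12 further CCAN genes, 7 genes of CENP-A loading (RSF1 and SNF2H included), 10 of the KMN network, 4 of the chromosomal passenger complex, 6 of the spindle checkpoint and 8 of the outer corona and of cohesion. Cenpm, a CCAN gene whose product sits in one complex with CENP-H and CENP-I, was the only DEG among them besides Rsf1 itself. It was at 91.6 and 85.1 normalized CPM in Rsf1Δ and at 36.2 and 35.9 in its WT, a log2(FC) of 1.29 (standard error 0.099, edgeR adjusted p = 6.7e-11), or a 2.45-fold increase. Both values lie above all 11 WT libraries, which range from 29.4 to 66.9, as do those of the 3 libraries labelled Cecr2Δ. Against the mean of the other 5 lines its difference was 1.22 (standard error 0.098, edgeR adjusted p = 6.16e-10). Under all the alternatives, left-out libraries included, these 2 values lay between 1.11 and 1.35 and passed. Cenpm (gene ID 66570) spans 82233762 to 82244773 of chromosome 15, and no gene of the annotation overlaps it.

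Cenpm also rose in Acf1Δ, at 53.3 and 58.0 normalized CPM against 37.3 and 34.2 (log2(FC) 0.64, edgeR adjusted p = 1.14e-05), and in the libraries labelled Cecr2Δ, at 78.7, 73.4 and 71.4 against 49.7, 66.9 and 57.8 (log2(FC) 0.36, edgeR adjusted p = 0.000836). In WstfΔ, with the same controls as Rsf1Δ, it was at 29.4 and 31.97. It was the only one of the 12 further CCAN genes to pass in Rsf1Δ, while its complex partners Cenph and Cenpi had log2(FC) values of 0.10 and 0.0052 there. Rsf1 itself, at 111 normalized CPM in the WT of batch A, fell by 2.26 on the log2 scale in Rsf1Δ, and it also fell in Acf1Δ, from 122 to 83.7 (log2(FC) -0.54, edgeR adjusted p = 3.5e-06).

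**Figure D5:**
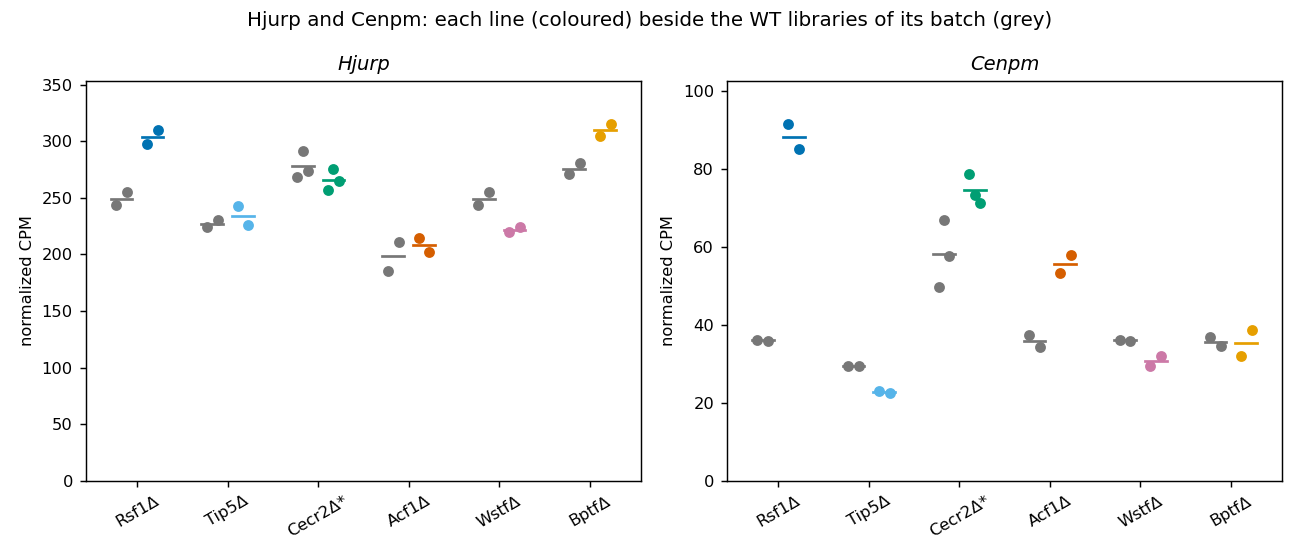
Normalized CPM (y axis, from 0) of Hjurp (left) and Cenpm (right) in each line (coloured points) beside the WT libraries of its batch (grey points), with bars for group means and an asterisk for the libraries labelled Cecr2Δ. The Rsf1Δ libraries are at 298 and 310 for Hjurp and at 91.6 and 85.1 for Cenpm, above all WT libraries of both genes. Also above all WT libraries are BptfΔ for Hjurp, at 305 and 315, and the 3 libraries labelled Cecr2Δ for Cenpm, at 71.4 to 78.7.

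The rest of these lists held smaller changes in both directions. Of the 12 further CCAN genes, 1 rose in Rsf1Δ (7.45% of all genes tested) and 0 fell (13.1%), 3 rose in Acf1Δ (15.1%) and 2 fell (16.7%), and 2 rose in BptfΔ (21.4%) and 2 fell (20.2%). In Tip5Δ 0 rose (2.84%) and 1 fell (6.23%), in WstfΔ 0 rose (16.4%) and 1 fell (18.3%), and in the libraries labelled Cecr2Δ 1 rose (9.52%) and 0 fell (8.83%). Those with the largest change were Cenpx in Tip5Δ (log2(FC) -0.37) and BptfΔ (0.50) and Cenpn in WstfΔ (-0.34), with the values of Cenpm above for the other lines. Of the 7 genes of CENP-A loading 1 rose (7.45% of all genes) and 1 fell (13.1%) in Rsf1Δ, 1 rose in Tip5Δ (2.84%), 1 rose (15.1%) and 3 fell (16.7%) in Acf1Δ, 1 fell in WstfΔ (18.3%) and 2 fell in BptfΔ (20.2%). Rbbp7, a histone chaperone gene among them, fell in WstfΔ (log2(FC) -0.40) and BptfΔ (-0.46). Of the 10 genes of the KMN network, the microtubule-binding core of the kinetochore, 4 rose in BptfΔ (21.4% of all genes), led by Spc24 (log2(FC) 0.52), 2 rose in Tip5Δ (2.84%), led by Ndc80 (0.33), and 2 fell in WstfΔ (18.3%), led by Zwint (-0.40). In Rsf1Δ (13.1%), Acf1Δ (16.7%) and the libraries labelled Cecr2Δ (8.83%) 1 gene each fell: Zwint (-0.36), Nuf2 (-0.30) and Pmf1 (-0.23).

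Of the 4 genes of the chromosomal passenger complex 1 rose (15.1% of all genes) and 1 fell (16.7%) in Acf1Δ, 2 rose in WstfΔ (16.4%), 1 rose in BptfΔ (21.4%), 1 fell in the libraries labelled Cecr2Δ (8.83%), and 0 passed in Rsf1Δ (20.6% in either direction) and Tip5Δ (9.07%). Aurkb, the kinase of the complex, rose in Acf1Δ, WstfΔ and BptfΔ (log2(FC) 0.34, 0.31 and 0.41), and Cdca8 fell in the libraries labelled Cecr2Δ (-0.20). Of the 6 spindle checkpoint genes 1 rose in each of Rsf1Δ (7.45%), Tip5Δ (2.84%), Acf1Δ (15.1%) and WstfΔ (16.4%), and 1 fell in WstfΔ (18.3%) and 1 in the libraries labelled Cecr2Δ (8.83%). In BptfΔ 0 passed (41.6% in either direction). Mad1l1 rose in Rsf1Δ (log2(FC) 0.41) and fell in the libraries labelled Cecr2Δ (-0.19), Bub1b rose in Tip5Δ (0.33) and WstfΔ (0.49), and Bub3 rose in Acf1Δ (0.20). Of the 8 genes of the outer corona and of cohesion 1 rose in Rsf1Δ (7.45%), 2 in Tip5Δ (2.84%) and 2 in WstfΔ (16.4%), and in Acf1Δ 1 rose (15.1%) and 2 fell (16.7%). From that list 0 passed in BptfΔ (41.6% in either direction) and in the libraries labelled Cecr2Δ (18.4%). Kif2c, a microtubule-depolymerizing kinesin, rose in Rsf1Δ (log2(FC) 0.29) and WstfΔ (0.28), and Sgo2a, a protector of centromeric cohesion, rose in Tip5Δ (0.32) and fell in Acf1Δ (-0.42). These names are the gene of each list with the largest called change in a line.

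Several of the 9 genes are known to be transcribed mainly before mitosis, and genes of the cell cycle are given beside them. Of 12 G2/M genes 5 rose in Tip5Δ (2.84% of all genes tested), led by Nusap1 (log2(FC) 0.43), and 4 rose in WstfΔ (16.4%), led by Ccnb2 (0.47), with 0 falling in either. In Acf1Δ 3 rose (15.1%), led by Cdc20 (0.58), and 3 fell (16.7%). In BptfΔ 1 fell (20.2%; Ccnb2, -0.32), in the libraries labelled Cecr2Δ 1 fell (8.83%; Cdc20, -0.27), and in Rsf1Δ 0 passed (20.6% in either direction). Of 12 G1/S genes 5 rose in Rsf1Δ (7.45%), led by Mcm5 (log2(FC) 0.31), 7 in Acf1Δ (15.1%), led by Cdt1 (0.44), and 2 in Tip5Δ (2.84%), led by Rrm2 (0.26), with 0 falling. In WstfΔ 4 rose (16.4%) and 2 fell (18.3%), in BptfΔ 1 rose (21.4%) and 4 fell (20.2%), and in the libraries labelled Cecr2Δ 1 rose (9.52%) and 3 fell (8.83%). The largest changes there were Ccne2 in WstfΔ (-0.50) and in the libraries labelled Cecr2Δ (-0.29), and Ccne1 in BptfΔ (-1.04), a DEG.

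Mki67, a proliferation marker, fell in Acf1Δ (log2(FC) -0.42, edgeR adjusted p = 0.00296) as Cenpe and Cenpf did, and Ccnb1, the mitotic cyclin, rose there (0.39, edgeR adjusted p = 8.04e-06). In Rsf1Δ Mki67 was at 233 against 302 normalized CPM on average, with a log2(FC) of -0.37 that did not pass (edgeR adjusted p = 0.0125). Top2a, a topoisomerase of mitotic chromosomes, passed in no line, with log2(FC) values from -0.19 in BptfΔ to 0.22 in Tip5Δ. The part of cell cycle composition in the levels of the 9 genes was not tested, and in bulk RNA fewer cells in a phase and less RNA per cell cannot be told apart.

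Markers of other cell types moved with the lines as well. The summed level of 6 primitive endoderm markers was 120 to 128 normalized CPM in Rsf1Δ and 119 to 122 in WstfΔ against 298 to 307 in their WT, 65.6 to 71.8 in Tip5Δ against 300.1 to 320, 9.01 to 9.22 in BptfΔ against 135 to 142, and 24.02 to 28.5 in the libraries labelled Cecr2Δ against 85.2 to 97.5. All 6 fell in these 5 lines, where 6.23% to 20.2% of all genes fell. In Acf1Δ the sum was 246 to 281 against 221 to 229, with 3 rising (15.1%) and 1 falling (16.7%). Summed mESC markers were at 3464 to 3468 in Rsf1Δ and 3763 to 3809 in WstfΔ against 2527 to 2618 in the WT of batch A, and 6 of 6 rose in both lines (7.45% and 16.4% of all genes). In BptfΔ they were at 3898 in both libraries against 2611 to 2677, and 5 of 6 rose (21.4%). In the libraries labelled Cecr2Δ they were at 3892 to 4117 against 3436 to 3705, with 4 of 6 rising (9.52%), in Acf1Δ at 3762 to 3910.5 against 3182 to 3390.3, with 2 rising (15.1%) and 2 falling (16.7%), and in Tip5Δ at 3020.0 to 3119 against 3086 to 3095, with 0 passing (9.07% in either direction). Sums of 4 neuroectoderm markers were 46.7 to 50.03 in Rsf1Δ and 55.02 to 55.4 in WstfΔ against 97.6 to 109 in WT, 35.9 to 39.2 in Acf1Δ against 79.6 to 80.2, 45.9 to 46.3 in BptfΔ against 57.1 to 60.7, 39.6 to 40.4 in the libraries labelled Cecr2Δ against 37.99 to 41.6 and 108 to 113 in Tip5Δ against 68.02 to 68.8. Of these 4 markers 1 rose (7.45%) and 1 fell (13.1%) in Rsf1Δ, 2 rose (16.4%) and 2 fell (18.3%) in WstfΔ, 1 rose (21.4%) and 3 fell (20.2%) in BptfΔ, 3 fell in Acf1Δ (16.7%), 2 rose in Tip5Δ (2.84%) and 1 rose in the libraries labelled Cecr2Δ (9.52%). Of 5 fibroblast markers, with sums of 2.54 to 31.7 over the libraries, 3 fell in each of BptfΔ (20.2%), WstfΔ (18.3%), Acf1Δ (16.7%), Rsf1Δ (13.1%) and Tip5Δ (6.23%), and 1 rose in WstfΔ (16.4%). Of 4 trophectoderm markers, with sums of at most 15.8, 1 fell in Tip5Δ and in Acf1Δ and 2 in each of the other lines, against 6.23% to 20.2% of all genes. Sums of 4 mesoderm markers were at most 9.10, with 1 rising in WstfΔ (16.4%) and 1 falling in BptfΔ (20.2%). Elf5, Mesp1 and Dcn did not pass the filter, and Col1a2 and Col3a1 had 0 counts in at least 1 library. The part of these cells in the values of the 9 genes was not tested.

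For each of the 9 genes the gene most alike over the 24 libraries was sought among 9828 others, with Pearson's r of log2 CPM after the WT mean of the batch was taken off. These were Hdhd5 for Cenpa (r = 0.92), Ring1 for Cenpb (0.97), Serinc3 for Cenpc1 (0.93), Pcm1 for Cenpe (0.93), Cntrl for Cenpf (0.95), Dnajc8 for Cenph (0.91), Xkr5 for Cenpi (0.90), Ercc4 for Hjurp (0.90) and Kdm1a for Oip5 (0.92). Each is the highest of many, the libraries share batches, lines and trends with GC content and width, and the values are descriptions. Among the 9 genes themselves r was highest for Cenpe and Cenpf (0.82), Cenpc1 and Cenpe (0.71) and Cenpa and Cenpb (0.61), and lowest for Cenpb and Cenpc1 (-0.49).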

How the data were processed

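RNA from 24 libraries of mESCs was measured by sequencing. Per the labels, reads were converted with bcl2fastq 2.17 and aligned with HISAT2 to mm10, and the authors deposited raw counts per gene of the UCSC knownGene annotation, without normalization, and a width in bases for each gene. How the counting treated strand and reads with several matches is not given in the sources used here. Gene IDs were joined to RefSeq GRCm38.p6, which gave symbols for 24570 of 24594 genes.

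The 9 genes, the gene lists and the tests were chosen with earlier results of these data known. In R 4.3.3, edgeR 4.0.16 filtered genes with filterByExpr by genotype (15682 left), scaled libraries of 13417800 to 36721600 counts with TMM factors, and fitted the quasi-likelihood model in its legacy form with terms for batch and genotype to all 24 libraries. Adjustment for multiple tests (Benjamini-Hochberg) ran over all 15682 genes, and genes under 0.01 are called. A standard error is the size of log2(FC) over √F, from the same fit. Log2 CPM used a pseudocount of 2. GC content was that of the longest GENCODE M21 transcript and was available for 94.4% of genes tested. The steps were tested on simulated data.

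Named genes were the 9 genes in every line, the targeted genes, Mki67, Top2a and Ccnb1, for each other list and line the called gene with the largest change (1 such result is not reported here), and for each of the 9 genes the most alike gene with a log2 CPM of at least 3. Pou5f1, Spef1, Nusap1 as a neighbour of Oip5 and markers named by their filter or counts were added after their values were seen.

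Alternatives were edgeR's newer fit, DESeq2 1.42.0, library size only, RLE size factors, other filters, each line with its own WT libraries only, no batch term, a replicate block, a test against a 2-fold change, an adjusted p under 0.05, leaving out batch C or each library in turn, and, chosen after seeing the data, removal of width or GC and width trends. For a line, the libraries left out were its own and those of its WT.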

Additional observations from a re-analysis of the deposited data

Results flagged for a closer look

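Differences between lines that passed their own test were seen for 4 of the 9 genes. Rsf1Δ against the mean of the other lines gave 1 of the 9, where 16.8% of all genes tested passed, and WstfΔ minus Rsf1Δ gave 4, where 33.3% passed. Hjurp differed between Rsf1Δ and the mean of the other 5 lines by 0.28 on the log2 scale (edgeR adjusted p = 0.00152). Both Rsf1Δ libraries stood above both WT libraries of their batch, where 67.1% of all genes did not overlap in either direction. This difference rests on few libraries, as given above, and ranged from 0.25 to 0.31 with 1 library left out.

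WstfΔ and Rsf1Δ, set against the same WT libraries, differed for Cenpf by 0.55 (edgeR adjusted p = 0.000141), for Oip5 by 0.30 (0.00691), for Cenpa by 0.24 (0.00251) and for Hjurp by -0.45 (1.89e-06), each as WstfΔ minus Rsf1Δ on the log2 scale and each with 2 of 2 libraries of one line beyond 2 of 2 of the other (share over all genes not computed). Of these, the values for Cenpf and Hjurp also passed with any 1 of the 24 libraries left out. No group of the series has 4 to 10 samples, so single libraries were not tested as outliers.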

How the results depend on the processing

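With no library left out, the 14 called values kept their sign in 154 of 154 alternative values and stayed called in 135. With 1 library left out, 42 of 56 stayed called, and among uncalled values 18 passed under other settings. Without a batch term the calls were 2 in Acf1Δ, 1 in BptfΔ and 0 in Rsf1Δ, Tip5Δ and WstfΔ. With each line's own WT libraries only they were 4 in BptfΔ and 3 in Tip5Δ. In Tip5Δ there were 2 at an adjusted p under 0.05, with no filter, with the width trend removed and with the GC and width trends removed, and 0 with library size only. For the libraries labelled Cecr2Δ 1 gene passed at 0.05 and with either trend removed. Between WT batches 4 passed without batch C. The cause of these shifts was not tested, and the shares over all genes under these settings were not computed. Leaving out 1 library gave 0 to 2 calls in Rsf1Δ, 0 in Tip5Δ, 0 to 1 for the Cecr2Δ label, 4 to 6 in Acf1Δ, 3 to 4 in WstfΔ, 1 to 2 in BptfΔ, 0 to 1 for Rsf1Δ against the other lines and 2 to 4 for WstfΔ minus Rsf1Δ.

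The replicate numbers did not pair the samples: deviations of same-numbered libraries correlated at -0.34 to 0.19 over 13 pairs. In lines with 2 replicates both pairs give the same value by construction, so the 13 are not separate values. With a replicate block 0 of the 9 genes were called in Tip5Δ, Cenpc1 in Acf1Δ was no longer called (adjusted p = 0.0103), and Oip5 in WstfΔ minus Rsf1Δ was 0.30 (adjusted p = 0.0164, and 0.0102 in DESeq2).

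Not divided by width, mean WT levels were 82.7 normalized CPM for Cenpa, 56.5 for Cenpb, 68.97 for Cenpc1, 182 for Cenpe, 322 for Cenpf, 43.8 for Cenph, 36.8 for Cenpi, 249 for Hjurp and 28.9 for Oip5.

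Signs of log2(FC) turned in 44 of the 828 values of all 54 comparisons under these alternatives, in 23 comparisons, none of them among the 14 called. Without batch these were Cenpa (-0.079), Cenpc1 (0.19) and Cenpe (0.19) in BptfΔ, Cenpb (-0.36) and Hjurp (-0.086) in Tip5Δ, Cenph (0.022), Cenpi (-0.018), Hjurp (-0.26) and Oip5 (0.033) in Acf1Δ, Cenpi (-0.017) and Oip5 (-0.012) in Rsf1Δ, and Hjurp (0.095) for the Cecr2Δ label. With library size only they were Cenpb in Tip5Δ (-0.010) and Cenpi in Rsf1Δ (-0.0043). With the GC and width trends removed they were Cenpc1 (0.12), Cenpe (0.0047), Cenph (0.12) and Oip5 (0.14) in BptfΔ, Cenpc1 (0.14) and Cenph (0.041) in WstfΔ, Cenpf in Rsf1Δ (0.068) and Cenpi for the Cecr2Δ label (-0.0038). Cenpc1 in WstfΔ also turned with a filter of 1 CPM (0.0013), its own WT only (0.015) and the width trend removed (0.025), the last of which turned Cenpf in Rsf1Δ (0.067).

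With 1 library left out the values that turned ranged from -0.0057 to 0.12 for Cenpb with the Cecr2Δ label and -0.0023 to 0.067 in Tip5Δ, -0.077 to 0.011 for Cenpc1 in BptfΔ and -0.014 to 0.0077 in WstfΔ, -0.017 to 0.16 for Cenpe in WstfΔ, -0.026 to 0.16 for Cenpf in BptfΔ and -0.24 to 0.12 in Rsf1Δ, -0.0030 to 0.20 for Cenph in Rsf1Δ, -0.075 to 0.091 for Cenpi in Rsf1Δ and -0.030 to 0.13 in WstfΔ, -0.020 to 0.16 for Hjurp in Acf1Δ and -0.0093 to 0.094 in Tip5Δ, and -0.18 to 0.028 for Oip5 in Acf1Δ and -0.17 to 0.099 in BptfΔ.

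For Rsf1Δ against the mean of the other lines, Cenpb turned to 0.068 without batch C, Cenpe to 0.0083 with the width trend removed and Oip5 to -0.019 with both trends removed. Cenpi, at -0.00056, turned to 0.015 (DESeq2 and RLE size factors), 0.014 (filter of 1 CPM), 0.012 (both trends), 0.047 (width trend), 0.0037 (library size only) and 0.00018 (replicate block). With 1 library left out Cenpe ranged from -0.13 to 0.014, Cenpf from -0.22 to 0.067, Cenpi from -0.064 to 0.068 and Oip5 from -0.0072 to 0.076.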
